A study of Mus musculus with 16 samples.

Results

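The genes described here encode the subunits of potassium, calcium and voltage-gated sodium channels. They were taken from the deposited table as the protein-coding genes whose symbols begin with Kcn or Cacn, or consist of Scn, a number and the letter a or b, and the rule found 134 genes among the 54532 genes listed. By role, 77 encode potassium pores, 17 potassium auxiliary subunits, 10 calcium pores, 16 calcium auxiliary subunits, 10 sodium pores and 4 sodium auxiliary subunits. By tissue, 19 were listed as smooth-muscle-type channels, 48 as neuron-type, 8 as striated-muscle-type, 5 as epithelial-type and 3 as blood-cell-type, and 51 were in no list. Some members known from brain or heart were left in no list, among them Kcnab2, Cacng7, Kcnh2 and Kcnj11. Counts by list depend on this choice.

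RNA was sequenced from the aortas of 16 male C57BL/6J mice, 4 mice in each of 4 groups and 1 library per mouse. The mice were 12 weeks old at surgery and began their diets 2 weeks later, which per the labels they ate for 30 days before the aorta was taken. Chronic kidney disease was induced by 5/6 nephrectomy (5/6 Nx), in which the poles of the left kidney were ligated and the right kidney was then removed. Sham mice kept both kidneys and ate a diet with 2% phosphorus and 2.5% protein, which was the diet, too, that 5/6 Nx-HPi-Lp mice ate (high phosphate, low protein), so this pair of groups differs by the nephrectomy. The 5/6 Nx-HPi-Hp mice ate 2% phosphorus with 18% protein, and the 5/6 Nx-LPi-Lp mice ate 0.3% phosphorus with 2.5% protein. Each thus differs from the HPi-Lp mice in the level of either protein or phosphorus. Other ingredients differed as well. The paper lists sodium and potassium phosphate in both 2% phosphorus diets but not in the 0.3% phosphorus diet, with calcium carbonate and starch also varying. These 3 nephrectomised groups are named by their diets from here on, as HPi-Lp, HPi-Hp and LPi-Lp mice. The study treats the HPi-Lp mice as its model of medial artery calcification. That group was compared with each of the other 3, and the other nephrectomised groups with the Sham mice.

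Ion channels are built from pore-forming subunits and from auxiliary subunits that set how readily the pore opens and how much of it reaches the membrane. In arterial smooth muscle, potassium channels hold the membrane potential negative, which keeps the L-type calcium channels closed and the vessel relaxed, while calcium entry through the L-type channel drives contraction. Neurons carry further potassium channels, N-type calcium channels and sodium channels that shape the action potential and transmitter release, and the sympathetic nerves of the vessel wall and ganglia near the aorta carry them too.

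The libraries held 13659525 to 57276915 counts. HPi-Lp replicates 2 and 3 were the deepest, with 57276915 and 46499243 counts, beside 15665005 and 15013203 in replicates 1 and 4. No library of another group held more than 24204348. A fit on replicates 2 and 3 alone thus uses the deepest libraries. FPKM are fragments scaled by transcript length and, as deposited, by a DESeq2 size factor of each library rather than its total count. A sum of 7 smooth muscle markers lay between 7941 and 9991 FPKM in the Sham mice and 858 and 1979 in the HPi-Lp mice. It lay between 2222 and 8802 in the HPi-Hp mice and 2779 and 6632 in the LPi-Lp mice. All 7 markers were above 1 FPKM in each library. In these whole-tissue samples, fewer cells of a type and less RNA per cell cannot be told apart. The sum of 12 sympathetic neuron markers was 8.93 to 14.7 FPKM in the Sham mice but 878, 27.1, 141 and 648 FPKM in HPi-Lp replicates 1 to 4. In the HPi-Hp and LPi-Lp mice the sum was 10.5 to 131 and 7.56 to 79.3 FPKM. HPi-Lp replicates 1 and 4 thus stood furthest apart, and results that rest on them are given below with and without them. Replicate 3 was also above every library of the other groups, so replicates 2 and 3 are no set free of neuron markers. The LPi-Lp replicate 2 stood apart in 5 heart muscle markers, with 2353 FPKM against at most 235 in any other library. The sum of 5 macrophage markers was 309 to 1179 FPKM in the HPi-Lp mice and 77.9 to 134 in the Sham mice, that of 5 fibroblast markers 505 to 2088 and 294 to 447 FPKM, and that of 5 adipocyte markers 939 to 1601 and 122 to 338 FPKM. Mitochondrially encoded genes took 19.3% to 27.1% and 4.18% to 6.34% of the counts in these groups. In the HPi-Hp and LPi-Lp mice they took 9.50% to 29.0% and 14.2% to 21.1%, and adipocyte markers summed to 288 to 2018 and 698 to 2019 FPKM. Neither was thus particular to the HPi-Lp mice. Macrophage markers summed to 127 to 225 and 74.7 to 156 FPKM there, and fibroblast markers to 183 to 469 and 209 to 274 FPKM.

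Potassium pores are recognised by their selectivity filter, a short run of residues that lines the narrowest part of the pore and lets potassium through. A signature of this filter (serine or threonine, then valine, isoleucine or leucine, glycine, an aromatic residue or leucine, and glycine) was found in the coding sequence of 77 of 77 potassium pore members, more than once in 12 of them, and in none of the 17 potassium auxiliary, 10 calcium pore, 15 calcium auxiliary, 10 sodium pore or 4 sodium auxiliary members with a coding sequence. The stretches of 57 bases around the filter are shown for 6 potassium pores that the results turn on or that differ in kind, because they show how far apart in sequence the members are. Capitals mark the 15 bases of the signature. Each stretch lies in 1 exon on the minus strand of GRCm38 (mm10), read 5′ to 3′ from the GENCODE vM21 transcripts.
Kcnma1, BK pore, chr14:23528392-23528448: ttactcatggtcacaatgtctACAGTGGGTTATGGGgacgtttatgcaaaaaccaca
Kcna5, voltage-gated, chr6:126533724-126533780: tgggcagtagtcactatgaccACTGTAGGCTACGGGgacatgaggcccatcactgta
Kcna1, voltage-gated, chr6:126642207-126642263: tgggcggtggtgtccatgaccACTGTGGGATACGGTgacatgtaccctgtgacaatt
Kcns3, silent modifier, chr12:11091554-11091610: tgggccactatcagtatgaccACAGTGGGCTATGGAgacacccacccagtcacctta
Kcnh2, ERG pore, chr5:24325534-24325590: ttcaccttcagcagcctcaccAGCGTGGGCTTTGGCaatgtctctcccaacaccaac
Kcnj8, inward rectifier, chr6:142566427-142566483: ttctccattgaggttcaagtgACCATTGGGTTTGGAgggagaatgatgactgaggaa

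The voltage-gated pores Kcna1 and Kcna5 had 40 of the 57 bases in common and Kcna5 and Kcns3 had 38. Kcnh2 and Kcnma1 had 30, and the inward rectifier Kcnj8 had 15 to 20 in common with each of the others. Over whole coding sequences, runs of at least 100 bases were shared only among the neuronal sodium pores Scn1a, Scn2a, Scn3a and Scn9a, and the longest was 188 bases, between Scn1a and Scn2a. Reads from such runs could have been split between these 4 genes, so their separate values are uncertain. Exons of 39 members overlapped those of another gene, on the same strand in 3 of them, Kcnk4 (13.1% of the exon bases), Cacng8 (3.88%) and Kcnab2 (2.24%). In 4 members, Kcnj13, Kcna6, Kcnj3 and Kcnmb4, more than 20% of the exon bases were shared, on the opposite strand. The strand setting of the counting is not given in the sources used here, so Kcna6 (39.6% shared) may include reads of an antisense gene. To a lesser degree of overlap, the same holds for Kcnk2 (12.2%), Kcng2 (9.1%), Kcnma1 (5.98%), Kcnk3 (5.76%), Kcnj15 (5.27%), Cacnb2 (4.67%) and Kcnip4 (4.63%), among others. Promoters of 300 bases from RefSeq (GRCm38.p6, 250 bases before and 50 after the start) were found for 99 members. A CArG box, the motif bound by serum response factor in smooth muscle genes, was in none of their 135 promoters on either strand and in 1.63% of all 32851 promoters. For the smooth-muscle-type list 20 promoters of 13 genes were searched. With a share of 1.63% over all promoters, so few promoters and so short a window cannot show that these genes lack such boxes.

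Most channel genes were low in the aorta. Of the 134 members, 38 had a mean above 1 FPKM over the 16 libraries, and 8 had a mean above 10 FPKM, among them the potassium pores Kcnh2, Kcnj8 and Kcnk3, the BK auxiliary subunit Kcnmb1 and the calcium auxiliary subunits Cacnb3 and Cacng7. No count was found in any library for Kcna10, Kcnj6 and Kcnv1, and 45 members passed the filter on low counts in none of the 5 comparisons. In the text a gene is called when its adjusted p is at most 0.05 and its fold change at least 2, and adjusted p-values are those of the quasi-likelihood test of edgeR, adjusted by the Benjamini-Hochberg method over all genes of a comparison. Log2 fold changes have the group named first in the numerator.

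Against the Sham mice, 76 members were tested, of which 21 (27.6%) were upregulated and 13 (17.1%) downregulated in the HPi-Lp mice. Among all 16513 genes tested, 15.0% were called higher and 7.18% lower. The median log2 fold change was 0.25 over the tested members and -0.0027 over all genes tested. Against the HPi-Hp mice, 1 of 81 members was called higher and 5 lower, where 5.01% and 3.11% of all genes were called. Against the LPi-Lp mice, 7 of 83 were called higher and 11 lower, where 7.90% and 3.98% of all genes were called. The potassium pores Kcnd3, Kcnh2 and Kcns3 were among the members lower against all 3 groups, and Kcnab2, a beta subunit of voltage-gated potassium channels, was the 1 member that was higher against all 3. These 3 comparisons share the HPi-Lp libraries. The counts moved with single libraries. Against the Sham mice 35 of 87 were higher without HPi-Lp replicate 2, where 2657 of all 16954 genes were. With replicates 2 and 3 alone 15 of 80 were higher and 21 lower, beside 15.0% and 8.69% of all genes. Against the HPi-Hp mice 2, 4 and 3 were higher without HPi-Lp replicate 1, replicate 2 and HPi-Hp replicate 4, respectively. In the same comparison 8 were lower without HPi-Lp replicate 1, and 3 without HPi-Lp replicate 2, 3 or 4 or HPi-Hp replicate 2. Against the LPi-Lp mice 16 were higher without HPi-Lp replicate 2, 3 without HPi-Lp replicate 4 or LPi-Lp replicate 1 or 3, and 4 without LPi-Lp replicate 2 or 4. There 4 were lower without HPi-Lp replicate 4 and 7 without LPi-Lp replicate 3. Calls among all genes moved as well. Over the fits that left out 1 library, 84 to 92 members were tested against the HPi-Hp mice and 82 to 91 against the LPi-Lp mice. Of all genes, 418 to 932 were higher and 216 to 626 lower in the former, and 902 to 1432 and 339 to 655 in the latter.

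Some calls were also lost in limma fits to FPKM, where an added constant shrinks the fold change of low genes. On log2(FPKM + 1), the calls against the Sham mice of Hcn3, Kcna5, Kcnd1, Kcnj2, Kcnk13, Kcnma1, Kcns3 and Scn7a passed the p threshold but fell short of 2-fold, as did those against the LPi-Lp mice of Kcnd1, Kcnd3, Kcnip1 and Kcnk13. At both constants, 1 and 0.1, no call was made for Kcna1, Kcna2, Scn2a and Scn3b against the Sham mice, for Hcn3, Kcnd3 and Kcns3 against the HPi-Hp mice, and for Cacnb2, Hcn3, Scn3b and Scn7a against the LPi-Lp mice. These calls are described below from the counts.

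**Figure D1:**
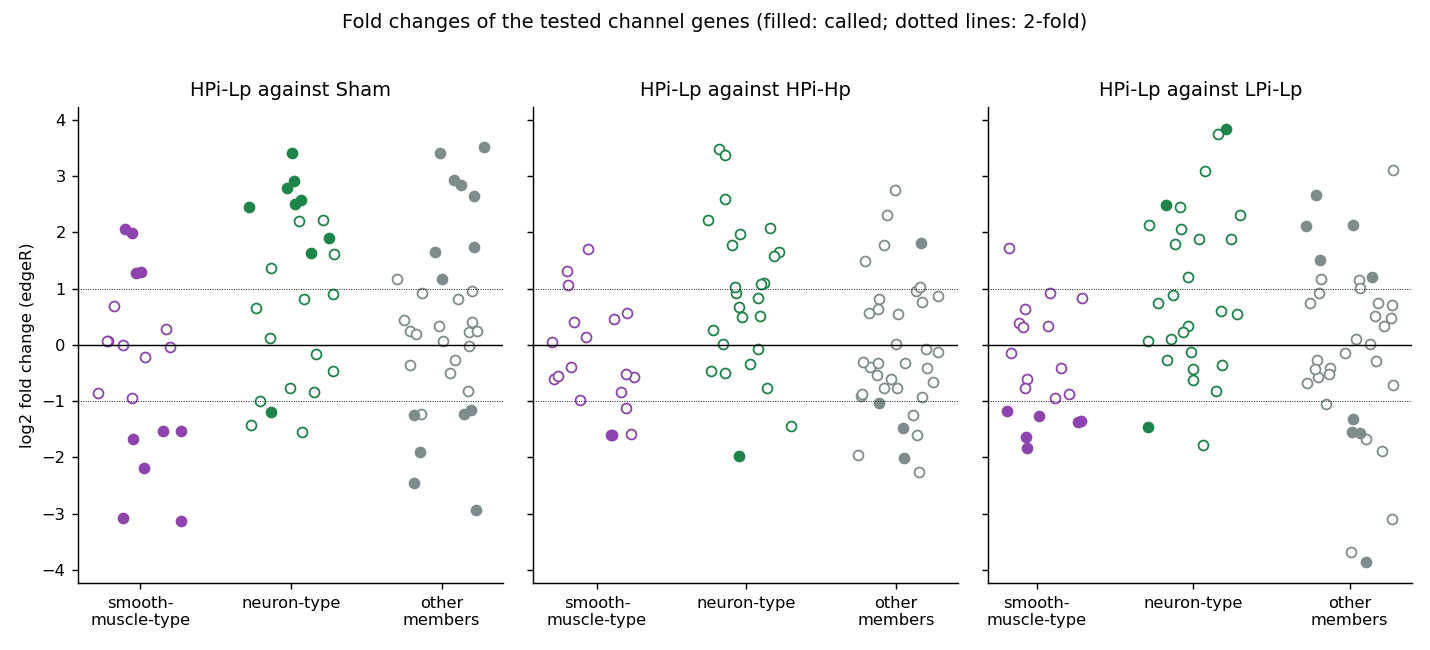
Log2 fold changes of the channel genes tested in each comparison of the HPi-Lp mice (y axis, edgeR), with 1 point per gene, by list on the x axis. Filled points were called, open points were not, and dotted lines mark 2-fold; Cacna1b against Sham is left out because the Sham mice held at most 2 counts. In the left panel 6 smooth-muscle-type genes lie filled below -1 and 4 above 1, while 8 of the neuron-type genes shown lie filled above 1 and 1 below.

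The smooth-muscle-type list was split by this comparison. Of its 19 genes, all of which were tested, 6 were called lower in HPi-Lp than in Sham mice (among them Cacna2d1, Cacnb2, Kcnab1, Kcnma1 and Kcnmb1), 4 were upregulated (Kcna2, Kcna5, Kcnj2 and Kcnk3) and 9 were not called, beside 7.18% lower and 15.0% higher among all genes. Its median log2 fold change was -0.030, beside -0.0027 over all genes. Against the HPi-Hp mice the median was -0.51 (0.0098 over all genes) and 1 of the 19 was called, lower, beside 3.11% of all genes. Against the LPi-Lp mice it was -0.61 (-0.016 over all genes) and 6 were lower, among them Cacnb2, Kcnab1, Kcnk3 and Kcnmb1, with none higher, beside 3.98% and 7.90% of all genes. The summed level of the 19 genes was 176 to 193 FPKM in the Sham mice, 92.7 to 121 in the HPi-Lp mice, 138 to 186 in the HPi-Hp mice and 142 to 184 in the LPi-Lp mice. The HPi-Lp libraries lay below all others.

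The BK channel opens in response to calcium sparks and relaxes the vessel. Its auxiliary subunit Kcnmb1 (ENSMUSG00000020155; chr11:33963013-33973641, plus strand), which raises the calcium sensitivity of the pore, had the largest fall of the list. Kcnmb1 stood at 53.7, 59.9, 47.0 and 54.0 FPKM in the Sham mice and at 6.80, 4.52, 9.78 and 3.92 FPKM in the HPi-Lp mice. In the HPi-Hp mice it stood at 16, 12.3, 6.94 and 40.6 FPKM and in the LPi-Lp mice at 11.8, 14.1, 23.4 and 39.4 FPKM. The Sham and HPi-Lp values were far apart, the LPi-Lp values lay between them without overlap, and HPi-Hp replicate 3 reached into the HPi-Lp range while replicate 4 was close to the Sham mice. Kcnmb1 was lower than in the Sham mice (log2 fold change -3.12, SE 0.28, edgeR adjusted p = 4.57e-05), a call that was kept without any 1 of the 8 libraries. It was also lower than in the LPi-Lp mice (log2 fold change -1.83, SE 0.42, edgeR adjusted p = 0.0175), a call that was lost without HPi-Lp replicate 4 (-1.65, adjusted p = 0.0569) and with replicates 2 and 3 alone (-1.63, adjusted p = 0.102). It was not called against the HPi-Hp mice (log2 fold change -1.61, SE 0.51, edgeR adjusted p = 0.0646).

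The BK pore Kcnma1 (ENSMUSG00000063142; chr14:23289431-24014491, minus strand), whose filter is printed above, was at 2.12, 2.61, 2.63 and 2.32 FPKM in the Sham mice and 1.22, 0.591, 0.813 and 0.813 FPKM in the HPi-Lp mice. These groups did not overlap, and Kcnma1 was lower in the latter (log2 fold change -1.53, SE 0.20, edgeR adjusted p = 0.000328). Against the other diets the groups overlapped and no call was made, with log2 fold changes of -0.55 and -0.61 (edgeR adjusted p = 0.388 and 0.177).

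Because both genes fell, the ratio of the auxiliary subunit to its pore was taken per mouse, as log2 of Kcnmb1 FPKM over Kcnma1 FPKM. It was 4.66, 4.52, 4.16 and 4.54 in the Sham mice and 2.48, 2.94, 3.59 and 2.27 in the HPi-Lp mice. In the HPi-Hp mice it was 4.19, 3.42, 3.57 and 4.11, and in the LPi-Lp mice 3.80, 3.91, 3.94 and 4.39. Each HPi-Lp value lay below each Sham and each LPi-Lp value, whereas HPi-Lp replicate 3 lay within the HPi-Hp range. The lowest values were in HPi-Lp replicates 4 and 1, the libraries with most sympathetic neuron marker RNA, and replicates 2 and 3 had 2.94 and 3.59. Which cells the RNA of the 2 genes came from was not tested, so the ratio may not be that within smooth muscle cells. The mean was 2.82 ± 0.584 (SD, n = 4) in the HPi-Lp mice and 4.47 ± 0.217 in the Sham mice, a difference of -1.65 (two-sided exact permutation test, p = 0.0286, Benjamini-Hochberg adjusted over 3 comparisons 0.0429). The difference was -1.19 from the LPi-Lp mice (4.01 ± 0.263, n = 4, exact permutation p = 0.0286, adjusted 0.0429) and -1.0 from the HPi-Hp mice (3.82 ± 0.383, n = 4, exact permutation p = 0.0857). With 4 mice against 4, 0.0286 is the smallest p this test can give.

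**Figure D2:**
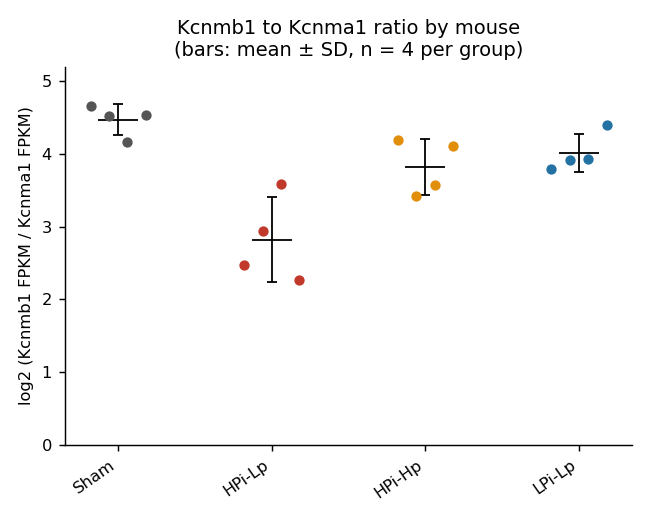
Log2 ratio of Kcnmb1 to Kcnma1 FPKM (y axis) by group (x axis), with 1 point per mouse and bars for the mean ± SD of 4 mice. The HPi-Lp mice lie between 2.27 and 3.59, below the Sham mice at 4.16 to 4.66.

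Voltage-gated potassium channels of the Kcna family bind a cytoplasmic beta subunit, and the beta subunits moved in opposite directions. Kcnab1 (ENSMUSG00000027827; chr3:65109384-65378223, plus strand) was at 16.9, 20.3, 16.3 and 16.9 FPKM in the Sham mice and 3.94, 1.08, 2.18 and 1.39 FPKM in the HPi-Lp mice. It was at 5.19, 5.09, 2.98 and 12.2 FPKM in the HPi-Hp mice and 4.58, 4.93, 7.23 and 9.81 FPKM in the LPi-Lp mice. The Sham values stood above all 12 libraries of 5/6 Nx mice. Kcnab1 was lower than in the Sham mice (log2 fold change -3.08, SE 0.36, edgeR adjusted p = 0.000174) and than in the LPi-Lp mice (log2 fold change -1.65, SE 0.41, edgeR adjusted p = 0.0223), the latter call being lost without HPi-Lp replicate 4 or LPi-Lp replicates 3 or 4, with log2 fold changes of -2.08 to -1.36 and adjusted p-values up to 0.0727 over the fits that left out 1 library. Against the HPi-Hp mice the log2 fold change of -1.59 was not called (edgeR adjusted p = 0.0607).

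Kcnab2 (ENSMUSG00000028931; chr4:152390742-152477871, minus strand), the beta subunit that is more abundant in brain and blood cells and that was in no list, went the other way. It was at 0.481, 0.659, 0.417 and 0.590 FPKM in the Sham mice and 3.56, 3.06, 2.72 and 4.33 FPKM in the HPi-Lp mice. In the HPi-Hp and LPi-Lp mice it was at 0.797 to 1.11 and 0.616 to 1.07 FPKM. The lowest HPi-Lp value was above the highest of the other 12 libraries. Kcnab2 was upregulated against the Sham mice (log2 fold change 2.64, SE 0.22, edgeR adjusted p = 3.38e-05), the HPi-Hp mice (log2 fold change 1.82, SE 0.22, edgeR adjusted p = 0.00315) and the LPi-Lp mice (log2 fold change 2.12, SE 0.23, edgeR adjusted p = 0.00131), and these calls were kept without any 1 library. The macrophage markers summed to 309, 1179, 650 and 593 FPKM in HPi-Lp replicates 1 to 4, and the sympathetic neuron markers to 878, 27.1, 141 and 648 FPKM. With replicates 2 and 3 alone the calls were kept, with log2 fold changes of 2.41, 1.57 and 1.89 against the Sham, HPi-Hp and LPi-Lp mice. The part of these cells in the Kcnab2 result was not tested.

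Among the pores that carry these beta subunits, Kcna5 was at 1.05, 1.91, 1.80 and 0.989 FPKM in the Sham mice and 4.27, 2.92, 3.66 and 3.35 FPKM in the HPi-Lp mice. The groups did not overlap and Kcna5 was higher in the latter (log2 fold change 1.27, SE 0.27, edgeR adjusted p = 0.00401), while against the other diets the values overlapped and were not called (0.46 and 0.32, edgeR adjusted p = 0.237 and 0.468). Kcna2, which is also a channel of nerve, was at 0.843, 0.593, 0.437 and 0.633 FPKM in the Sham mice and 6.77, 0.642, 1.03 and 2.33 FPKM in the HPi-Lp mice, where replicates 1 and 4 were high and replicate 2 lay within the Sham range. Its higher level against the Sham mice (log2 fold change 2.06, SE 0.65, edgeR adjusted p = 0.0280) was lost without Sham replicates 1, 2, 3 or 4 or HPi-Lp replicate 1, and with replicates 2 and 3 alone the log2 fold change was 0.39 (adjusted p = 0.322). Replicates 1 and 4 are also those with most sympathetic neuron marker RNA, and the part of these cells in the Kcna2 result was not tested beyond that fit.

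The Kcnq pores carry a potassium current that opens near the resting potential of the artery. Kcnq5 was at 0.860, 0.919, 0.834 and 0.886 FPKM in the Sham mice and spread from 0.205 to 1.96 FPKM in the HPi-Lp mice (log2 fold change 0.060, edgeR adjusted p = 0.945), with the high values in replicates 1 and 4. With replicates 2 and 3 alone it was called lower (log2 fold change -1.52, edgeR adjusted p = 0.00611). In that fit 7 of the 19 smooth-muscle-type genes were called lower, beside 8.69% of all genes. Kcnq1 was at 0.309 to 0.548 FPKM in the Sham mice and was not called in any of the 3 comparisons. Kcne4, an inhibitory partner of Kcnq and Kcna pores, was at 16.5, 10.8, 15.8 and 16.7 FPKM in the Sham mice and 6.13, 10.3, 11.3 and 5.80 FPKM in the HPi-Lp mice. It passed the p threshold but not 2-fold (log2 fold change -0.86, edgeR adjusted p = 0.0154), and the groups overlapped because Sham replicate 2 lay below HPi-Lp replicate 3.

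**Figure D3:**
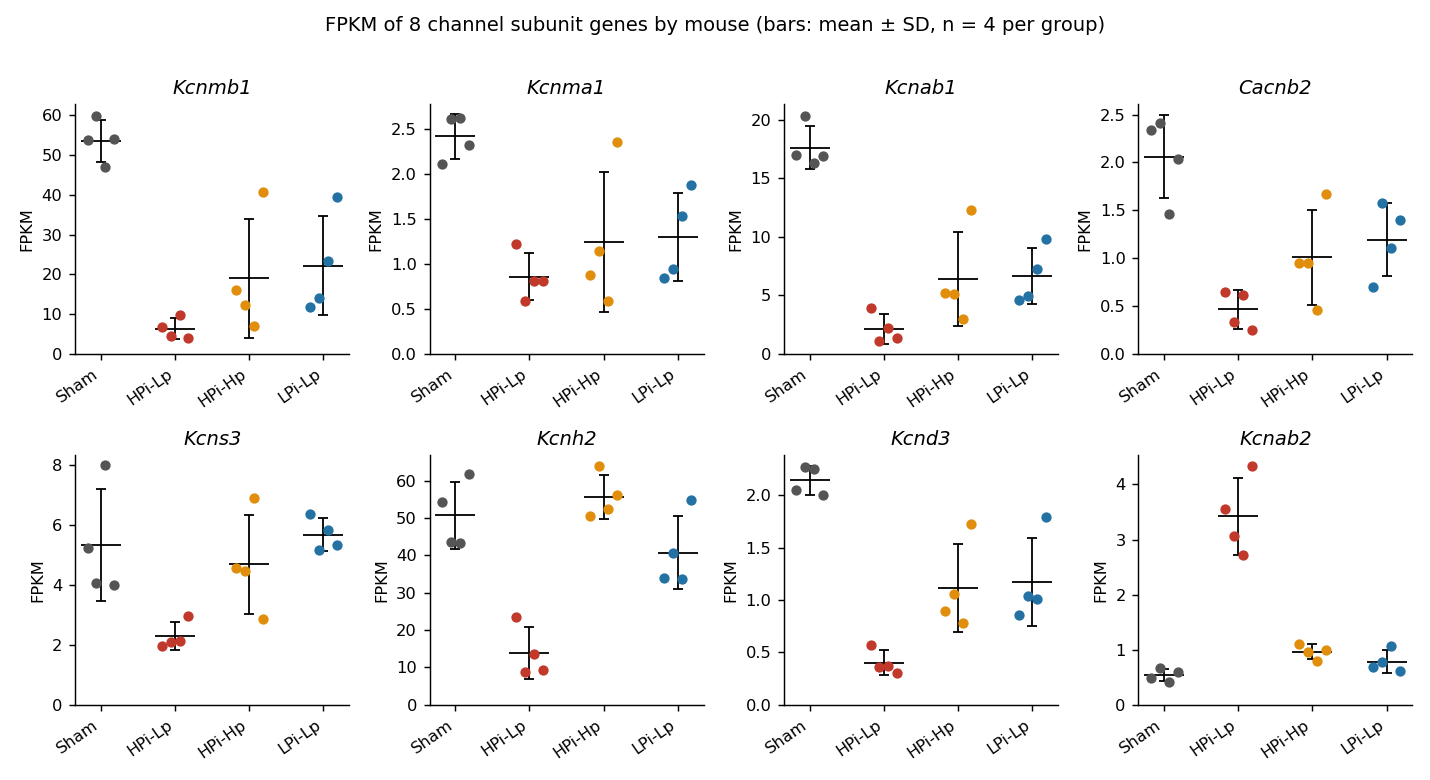
FPKM (y axis, from 0) of 8 channel genes by group (x axis), with 1 point per mouse and bars for the mean ± SD of 4 mice. In 7 of the panels the HPi-Lp points lie below all Sham points, and in the eighth, Kcnab2, at 2.72 to 4.33 FPKM, they lie above all other libraries.

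Inward rectifiers pass potassium near the resting potential. Kcnj8 (ENSMUSG00000030247; chr6:142564837-142571614, minus strand), the pore of the vascular ATP-sensitive channel, was at 28.9, 23.6, 25.6 and 24.0 FPKM in the Sham mice and 30.0, 26.5, 27.2 and 18.4 FPKM in the HPi-Lp mice. The groups overlapped and Kcnj8 was not called in any of the 3 comparisons, with a log2 fold change against the Sham mice of -0.030 and an SE of 0.15 (edgeR adjusted p = 0.889). Its close relative Kcnj11, the ATP-sensitive pore of heart and pancreatic islets, which was in no list, was at 1.91, 1.71, 2.15 and 2.21 FPKM in the Sham mice and 0.369, 0.0341, 0.553 and 0.0881 FPKM in the HPi-Lp mice, on 21, 7, 92 and 5 counts. Kcnj11 was lower (log2 fold change -2.94, SE 0.69, edgeR adjusted p = 0.00697) and was lower than in the LPi-Lp mice too (log2 fold change -3.86, SE 0.90, edgeR adjusted p = 0.0183). The latter group stood at 1.78, 9.50, 2.24 and 1.84 FPKM. Its call was lost without HPi-Lp replicate 4 (-3.59, adjusted p = 0.0570) and with replicates 2 and 3 alone (-3.70, adjusted p = 0.0911). It was -2.91 (adjusted p = 0.0413) with LPi-Lp replicate 2 left out, the library with the heart muscle markers. Kcnj2, the classical inward rectifier, was at 0.209, 0.223, 0.150 and 0.281 FPKM in the Sham mice and 0.261, 1.17, 1.02 and 1.06 FPKM in the HPi-Lp mice. It was higher (log2 fold change 1.99, SE 0.45, edgeR adjusted p = 0.00611) although replicate 1 lay within the Sham range.

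Kcnk3 (ENSMUSG00000049265; chr5:30588170-30625271, plus strand) encodes a background potassium channel that is open at rest and sensitive to acid, and it is also abundant in brown fat. It was at 6.32, 10.4, 10.6 and 9.12 FPKM in the Sham mice and 18.0, 23.0, 30.5 and 19.6 FPKM in the HPi-Lp mice. It was at 39.8, 30.9, 54.8 and 14 FPKM in the HPi-Hp mice and 84.3, 38.7, 50.1 and 32.3 FPKM in the LPi-Lp mice. All 12 libraries of 5/6 Nx mice lay above the Sham mice. Kcnk3 was higher than in the Sham mice in the HPi-Lp mice (log2 fold change 1.29, SE 0.20, edgeR adjusted p = 0.000815), the HPi-Hp mice (log2 fold change 1.93, edgeR adjusted p = 0.00956) and the LPi-Lp mice (log2 fold change 2.50, edgeR adjusted p = 0.00253), and lower in the HPi-Lp than in the LPi-Lp mice (log2 fold change -1.17, SE 0.30, edgeR adjusted p = 0.0258). The last call was lost without HPi-Lp replicates 1, 2 or 4 or LPi-Lp replicates 1 or 3, with log2 fold changes of -1.35 to -0.85 and adjusted p-values up to 0.0755 over the fits that left out 1 library, and with HPi-Lp replicates 2 and 3 alone the log2 fold change was -0.92. The brown fat gene Ucp1 moved with it, at 119, 252, 190 and 280 FPKM in the Sham mice and 1864, 400, 1086 and 1242 FPKM in the LPi-Lp mice, with the highest Ucp1 and the highest Kcnk3 both in LPi-Lp replicate 1. The summed brown adipocyte markers were 184 to 391 FPKM in the Sham mice and 347 to 3012 FPKM in the other 12 libraries. The part of brown fat in the Kcnk3 result was not tested.

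**Figure D4:**
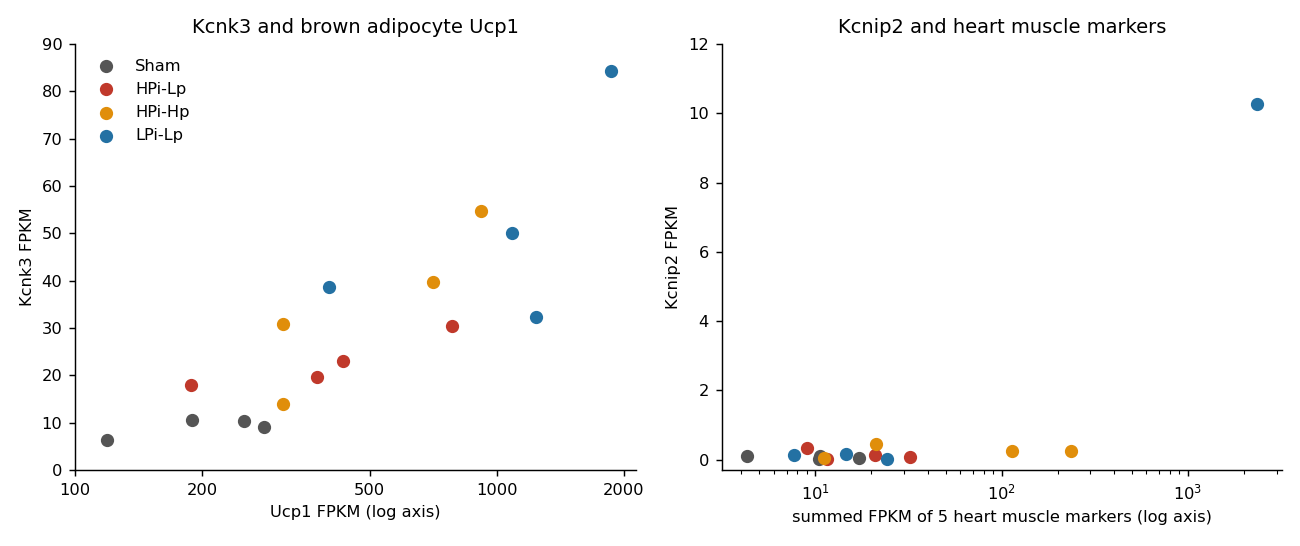
Left, Kcnk3 FPKM (y axis) against Ucp1 FPKM (x axis, log); right, Kcnip2 FPKM (y axis) against the summed FPKM of 5 heart muscle markers (x axis, log), with 1 point per mouse, coloured by group. The highest Kcnk3 (84.3 FPKM) falls in the library with the highest Ucp1 (1864 FPKM), and the highest Kcnip2 (10.3 FPKM) in the library with 2353 FPKM of heart muscle markers.

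The L-type calcium channel of smooth muscle has the pore Cacna1c and the auxiliary subunits Cacna2d1 and Cacnb2 or Cacnb3. Cacna1c was at 3.20, 3.05, 3.50 and 3.24 FPKM in the Sham mice and 1.80, 1.47, 1.99 and 1.64 FPKM in the HPi-Lp mice. It was at 2.31, 3.44, 2.66 and 3.86 FPKM in the HPi-Hp mice and 2.30, 4.39, 3.44 and 3.17 FPKM in the LPi-Lp mice. Each HPi-Lp library lay below each of the other 12, but the differences stayed under 2-fold and were not called, with log2 fold changes of -0.94, -0.83 and -0.95 against the Sham, HPi-Hp and LPi-Lp mice (edgeR adjusted p = 0.000195, 0.0241 and 0.0111). The subunit Cacnb2 (ENSMUSG00000057914; chr2:14603088-14987908, plus strand), which carries the pore to the membrane, was at 2.34, 2.41, 1.46 and 2.03 FPKM in the Sham mice and 0.650, 0.332, 0.619 and 0.250 FPKM in the HPi-Lp mice. It was lower without overlap (log2 fold change -2.18, SE 0.31, edgeR adjusted p = 0.000482), and also lower than in the LPi-Lp mice (log2 fold change -1.37, SE 0.36, edgeR adjusted p = 0.0285), where it was at 0.698, 1.57, 1.10 and 1.39 FPKM. The latter call was lost without HPi-Lp replicates 2 or 4 or LPi-Lp replicates 2, 3 or 4, with log2 fold changes of -1.58 to -1.15 and adjusted p-values up to 0.0728 over the fits that left out 1 library. It was also lost with replicates 2 and 3 alone (-1.32, adjusted p = 0.0731). Cacnb3, the most abundant beta subunit of this list, was at 19.0, 14.6, 15.8 and 15.3 FPKM in the Sham mice and 21.3, 15.8, 13.6 and 18.3 FPKM in the HPi-Lp mice, which overlapped (log2 fold change 0.060, edgeR adjusted p = 0.777).

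Cacna2d1, the subunit outside the membrane that gabapentin binds, was at 9.25, 9.71, 10.6 and 8.81 FPKM in the Sham mice and 3.84, 2.79, 3.68 and 3.14 FPKM in the HPi-Lp mice. It was lower (log2 fold change -1.54, SE 0.13, edgeR adjusted p = 3.24e-05) and was not called against the other diets (-0.51 and -0.87, edgeR adjusted p = 0.252 and 0.0234). The T-type pores Cacna1g and Cacna1h, which open at more negative potentials, were not called in any comparison of the HPi-Lp mice. Cacna1h was at 1.58, 1.37, 1.29 and 1.64 FPKM in the HPi-Hp mice and 1.04, 0.719, 0.596 and 0.637 FPKM in the HPi-Lp mice, just under 2-fold lower in the latter (log2 fold change -0.98, edgeR adjusted p = 0.0254).

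The potassium pore with the highest mean level was outside the smooth-muscle-type list. Kcnh2 (ENSMUSG00000038319; chr5:24319589-24351604, minus strand), the ERG channel known from the repolarisation of the heart, was at 54.4, 43.5, 43.3 and 61.7 FPKM in the Sham mice and 23.6, 8.77, 13.6 and 9.29 FPKM in the HPi-Lp mice. It was at 50.5, 64.0, 52.4 and 56.1 FPKM in the HPi-Hp mice and 34.0, 40.5, 33.8 and 54.8 FPKM in the LPi-Lp mice. The highest HPi-Lp value, in replicate 1, stayed below the lowest of the other groups. Kcnh2 was lower against the Sham (log2 fold change -1.91, SE 0.31, edgeR adjusted p = 0.000929), the HPi-Hp (log2 fold change -2.01, SE 0.31, edgeR adjusted p = 0.00545) and the LPi-Lp mice (log2 fold change -1.57, SE 0.32, edgeR adjusted p = 0.0110), and all 3 calls were kept without any 1 library. Neither the HPi-Hp nor the LPi-Lp mice differed from the Sham mice by a called change in Kcnh2 (0.13 with SE 0.16, and -0.30 with SE 0.19).

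Kcnd3, a pore of the fast transient outward current, was at 2.05, 2.27, 2.25 and 2.00 FPKM in the Sham mice and 0.573, 0.360, 0.369 and 0.304 FPKM in the HPi-Lp mice, with the other diets between them at 0.781 to 1.73 and 0.859 to 1.80 FPKM. It was lower against the Sham (log2 fold change -2.45, SE 0.20, edgeR adjusted p = 3.38e-05), the HPi-Hp (log2 fold change -1.48, SE 0.34, edgeR adjusted p = 0.0219) and the LPi-Lp mice (log2 fold change -1.56, SE 0.31, edgeR adjusted p = 0.0101). The call against the HPi-Hp mice was lost without HPi-Lp replicates 2, 3 or 4 or HPi-Hp replicate 2, with log2 fold changes of -1.70 to -1.18 and adjusted p-values up to 0.0704 over the fits that left out 1 library. With replicates 2 and 3 alone it was lost as well (-1.62, adjusted p = 0.0502). Its relative Kcnd1 rose from 0.626, 0.490, 0.610 and 0.550 FPKM in the Sham mice to 1.19, 3.01, 1.57 and 2.00 FPKM in the HPi-Lp mice without overlap (log2 fold change 1.74, SE 0.29, edgeR adjusted p = 0.00112), and was also higher than in the LPi-Lp mice (log2 fold change 1.5, edgeR adjusted p = 0.0112). Against the HPi-Hp mice Kcnd1 was not called (log2 fold change 0.76, edgeR adjusted p = 0.127).

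Kcns3 has a filter like that of Kcna5 but forms no current alone and modifies other voltage-gated pores. It was at 5.24, 4.04, 8.0 and 4.00 FPKM in the Sham mice and 1.94, 2.09, 2.13 and 2.97 FPKM in the HPi-Lp mice. It was lower against the Sham (log2 fold change -1.25, SE 0.25, edgeR adjusted p = 0.00323), the LPi-Lp (log2 fold change -1.32, SE 0.18, edgeR adjusted p = 0.00263) and the HPi-Hp mice (log2 fold change -1.03, SE 0.28, edgeR adjusted p = 0.0388). In the last comparison HPi-Hp replicate 4 lay within the HPi-Lp range and the call was lost without HPi-Lp replicates 1, 2, 3 or 4 or HPi-Hp replicates 1, 2 or 3, with log2 fold changes of -1.20 to -0.81 and adjusted p-values up to 0.0953 over the fits that left out 1 library. Replicates 2 and 3 alone gave no call either (-1.15, adjusted p = 0.0891). Kcnc4, a fast delayed rectifier, was at 10.6, 10.9, 10.2 and 10.2 FPKM in the Sham mice and 8.91, 2.19, 3.66 and 4.50 FPKM in the HPi-Lp mice. It was called lower against the Sham mice (log2 fold change -1.16, SE 0.35, edgeR adjusted p = 0.0221), but the call was lost without Sham replicate 2 or HPi-Lp replicates 2, 3 or 4, with log2 fold changes of -1.63 to -0.91 and adjusted p-values up to 0.0596 over the fits that left out 1 library.

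Cacng7, an auxiliary subunit best known for its work on glutamate receptors in the brain but in no list, had the second highest level of the calcium auxiliary subunits. It was at 24.7, 19.3, 21.5 and 19.7 FPKM in the Sham mice and 13.7, 7.28, 7.98 and 8.36 FPKM in the HPi-Lp mice and was lower (log2 fold change -1.23, SE 0.20, edgeR adjusted p = 0.00104), with no call against the other diets.

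Besides Kcnk3, 3 background potassium channels of the Kcnk family were higher than in the Sham mice, from low levels. Kcnk2, a channel opened by stretch, was at 0.0254 to 0.0784 FPKM in the Sham mice and 0.772, 0.467, 0.148 and 0.288 FPKM in the HPi-Lp mice (log2 fold change 2.93, SE 0.64, edgeR adjusted p = 0.00502). Kcnk10, its close relative, was at 0.00872 to 0.0540 FPKM in the Sham mice and 0.332, 0.0551, 0.184 and 0.827 FPKM in the HPi-Lp mice (log2 fold change 3.41, SE 0.88, edgeR adjusted p = 0.0113). Kcnk13, a channel of microglia and other macrophages, was at 0.106, 0.148, 0.235 and 0.295 FPKM in the Sham mice and 0.748, 2.22, 1.24 and 1.5 FPKM in the HPi-Lp mice. It was higher against the Sham (log2 fold change 2.83, SE 0.45, edgeR adjusted p = 0.000870) and the LPi-Lp mice (log2 fold change 2.66, SE 0.52, edgeR adjusted p = 0.00956). Its highest value was in replicate 2, which also had the highest macrophage marker sum of 1179 FPKM, and its lowest in replicate 1, with 309 FPKM. The fibroblast marker sum was likewise highest in replicate 2 (2088 FPKM) and lowest in replicate 1 (505 FPKM). The part of these cells in the Kcnk13 result was not tested. Kcnn4, another channel of blood cells, was at 1.69 to 2.66 FPKM in the Sham mice and 3.03, 5.46, 4.06 and 3.17 FPKM in the HPi-Lp mice and did not reach 2-fold (log2 fold change 0.82, edgeR adjusted p = 0.0116), while Kcna3, the remaining gene of the blood-cell-type list, was too low to be tested. With replicates 2 and 3 of the HPi-Lp mice alone, the call of Kcnk10 against the Sham mice was lost (1.90, adjusted p = 0.0903).

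Of the 48 neuron-type channel genes, 25 passed the filter against the Sham mice, and 9 of these were called higher in the HPi-Lp mice (Cacna1b, Kcna1, Kcna6, Kcnc2, Kcnh1, Scn3a, Scn3b and Scn8a among them) and 1 lower (Scn2a), beside 15.0% and 7.18% of all genes. The filter keeps a low gene that is high in 1 group, so the 25 are not the whole list. The median log2 fold change of the 25 was 1.37, beside -0.0027 over all genes. Of the whole list, 26 were tested against the HPi-Hp mice and only Kcnip1 was called, lower, and against the LPi-Lp mice Cacna1b and Scn3b were higher and Kcnip1 lower of 28. The 2 higher genes are 7.14% of those tested, close to the 7.90% of all genes, and the 1 lower gene is 3.85% of those tested against the HPi-Hp mice and 3.57% against the LPi-Lp mice, beside 3.11% and 3.98%. The median log2 fold changes were 0.88 and 0.68, beside 0.0098 and -0.016 over all genes.

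The libraries differed within the HPi-Lp group. The summed level of the 48 neuron-type genes was 42.2, 6.59, 12.7 and 26.0 FPKM in replicates 1 to 4, against 11.6 to 13.1 FPKM in the Sham mice, 11.9 to 16.8 in the HPi-Hp mice and 11.9 to 14.2 in the LPi-Lp mice. Replicates 1 and 4 lay above all other libraries, replicate 2 below all others and replicate 3 among the Sham mice. The sympathetic neuron markers had the same order of replicates (878, 27.1, 141 and 648 FPKM), with all 12 markers above 1 FPKM in replicates 1 and 4, 11 in replicate 3 and 5 in replicate 2, where Th and Dbh, the enzymes that make noradrenaline, were listed at 0. In the Sham mice 2 of the 12 markers were above 1 FPKM. Schwann cell markers were highest in replicate 1, with 162 FPKM against 11.6 to 14.5 in the Sham mice. The part of nerve tissue in these results was not tested as a cause. Replicates 2 and 3 were the deepest libraries, and replicate 3 still held more neuron marker RNA than any library of another group. The fit was repeated with replicates 2 and 3 alone, an alternative chosen after the data were seen. There, 6 of 27 neuron-type genes were higher than in the Sham mice (among them Cacna1b, Cacng2, Cacng8, Kcnc2 and Scn8a) and 4 lower (Cacna2d3, Kcnip1, Kcnip4 and Scn2a), beside 15.0% and 8.69% of all genes in that fit.

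**Figure D5:**
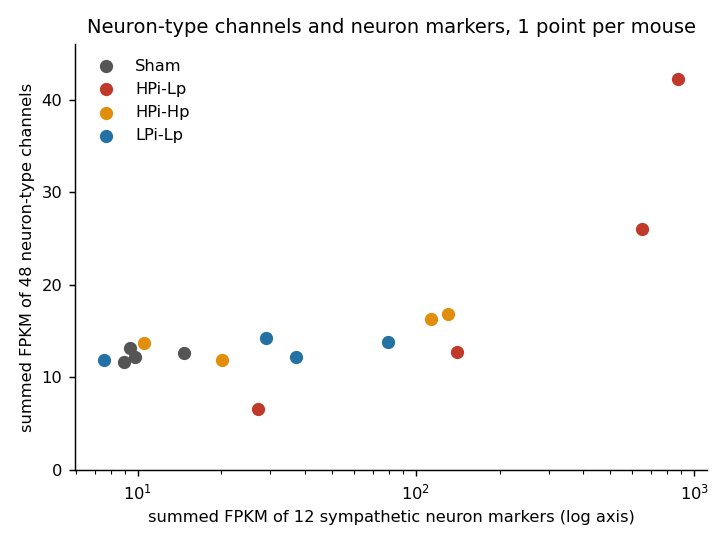
Summed FPKM of the 48 neuron-type channel genes (y axis) against that of 12 sympathetic neuron markers (x axis, log), with 1 point per mouse, coloured by group. HPi-Lp replicates 1 and 4 lie apart at the upper right (42.2 and 26.0 FPKM of channels), and the other 14 libraries lie between 6.59 and 16.8 FPKM.

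Cacna1b is the pore of the N-type calcium channel, which triggers transmitter release from sympathetic terminals. It held 0, 0, 0 and 2 counts in the Sham libraries and 273, 46, 131 and 212 counts in HPi-Lp replicates 1 to 4, or 1.78, 0.0828, 0.291 and 1.38 FPKM. It was called higher against the Sham mice with each library left out and with replicates 2 and 3 alone. Against the LPi-Lp mice (log2 fold change 3.84, edgeR adjusted p = 0.0477) the call was lost without HPi-Lp replicates 1, 3 or 4 or LPi-Lp replicates 1, 2 or 3, with log2 fold changes of 3.28 to 5.64 and adjusted p-values up to 0.119 over the fits that left out 1 library. It was lost too with replicates 2 and 3 alone (1.66, adjusted p = 0.415). Kcna1, a potassium pore of axons, was at 0.192, 0.140, 0.144 and 0.176 FPKM in the Sham mice and 5.6, 0.228, 0.467 and 0.948 FPKM in the HPi-Lp mice. It was higher (log2 fold change 3.42, SE 0.93, edgeR adjusted p = 0.0146), most of all in replicate 1, and with replicates 2 and 3 alone it was no longer called (1.07, adjusted p = 0.0894). Kcna6, of the same family, was at 0.661, 0.344, 0.492 and 0.721 FPKM in the Sham mice and 3.72, 0.458, 1.01 and 1.86 FPKM in the HPi-Lp mice (log2 fold change 1.62, edgeR adjusted p = 0.0414), a call lost without Sham replicates 1, 2, 3 or 4 or HPi-Lp replicates 1 or 4, with log2 fold changes of 0.97 to 1.95 and adjusted p-values up to 0.114 over the fits that left out 1 library. Kcna6 was not called with replicates 2 and 3 alone (0.38, adjusted p = 0.492).

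The sodium channels of neurons were low. The beta subunit Scn3b was at 0.491, 0.543, 0.433 and 0.273 FPKM in the Sham mice and 5.01, 0.239, 1.46 and 3.42 FPKM in the HPi-Lp mice, where replicate 2 was below the Sham mice. Its call (log2 fold change 2.50, SE 0.73, edgeR adjusted p = 0.0199) was lost without Sham replicates 1, 3 or 4, with log2 fold changes of 1.94 to 2.89 and adjusted p-values up to 0.0617 over the fits that left out 1 library. It was also lost with replicates 2 and 3 alone (0.95, adjusted p = 0.248). The call of Scn3b against the LPi-Lp mice (log2 fold change 2.48, edgeR adjusted p = 0.0420) was kept in only 1 of 8 fits that left out a library, and was lost without HPi-Lp replicates 1, 3 or 4 or LPi-Lp replicates 1, 2, 3 or 4 (adjusted p up to 0.101), as it was with replicates 2 and 3 alone (0.95, adjusted p = 0.380). Scn2b, a beta subunit, was at 0.575 to 1.02 FPKM in the Sham mice and 3.40, 0.231, 0.893 and 1.32 FPKM in the HPi-Lp mice, and was not called (log2 fold change 0.90, edgeR adjusted p = 0.284). The pores Scn3a and Scn9a were also highest in replicates 1 and 4. Scn3a was at 0.815, 0.0388, 0.108 and 0.613 FPKM in the HPi-Lp mice and 0.0177 to 0.114 FPKM in the Sham mice (log2 fold change 2.57, edgeR adjusted p = 0.0468), a call lost without Sham replicates 1, 2, 3 or 4 or HPi-Lp replicates 1 or 4 (adjusted p up to 0.114) and with replicates 2 and 3 alone (0.18, adjusted p = 0.866). Scn9a, the pore known for its part in pain, held 260, 0, 50 and 155 counts in the HPi-Lp libraries and at most 4 in a Sham library, and did not pass the filter there.

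Scn2a went the other way, at 0.776, 0.860, 0.902 and 0.802 FPKM in the Sham mice and 0.772, 0.228, 0.165 and 0.351 FPKM in the HPi-Lp mice, with replicate 1 just under the Sham mice. It was called lower (log2 fold change -1.20, SE 0.42, edgeR adjusted p = 0.0442), but the call was lost without Sham replicates 1, 2, 3 or 4 or HPi-Lp replicates 2, 3 or 4, with log2 fold changes of -1.79 to -0.93 and adjusted p-values up to 0.0920 over the fits that left out 1 library. The values of Scn2a, Scn3a and Scn9a share the uncertainty about reads from their common runs. Scn8a, the pore of nodes of Ranvier, was at 0.00233 to 0.0267 FPKM in the Sham mice and 0.0267 to 0.148 FPKM in the HPi-Lp mice (log2 fold change 2.91, edgeR adjusted p = 0.0110). The fast potassium pore Kcnc2 was at 0.0360, 0.0468, 0.0301 and 0.0911 FPKM in the Sham mice and at 0.281, 0.125, 0.266 and 0.490 FPKM in the HPi-Lp mice, without overlap, and was higher in the latter (log2 fold change 2.45, SE 0.56, edgeR adjusted p = 0.00615). The calls of Scn8a and Kcnc2 were kept without any 1 library and with replicates 2 and 3 alone, although both genes were below 0.5 FPKM in each library of both groups. The call of Kcnh1 (log2 fold change 1.89, edgeR adjusted p = 0.0465) was lost without Sham replicates 1, 2, 3 or 4 or HPi-Lp replicates 1 or 4 (adjusted p up to 0.134) and with replicates 2 and 3 alone (0.16, adjusted p = 0.816).

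Kcnip1, a calcium-binding subunit of Kcnd channels that was listed as neuron-type, was at 1.01, 0.422, 0.564 and 0.794 FPKM in the HPi-Lp mice and 2.15, 2.98, 3.69 and 2.15 FPKM in the HPi-Hp mice, without overlap, and was lower in the former (log2 fold change -1.98, SE 0.32, edgeR adjusted p = 0.00617), a call kept without any 1 library. In the LPi-Lp mice it was at 2.60, 2.03, 1.02 and 1.90 FPKM (log2 fold change -1.45, SE 0.35, edgeR adjusted p = 0.0206), a call lost without HPi-Lp replicate 4 or LPi-Lp replicate 1 (adjusted p up to 0.0550). Against the Sham mice, at 1.16, 1.03, 1.16 and 1.48 FPKM, the difference stayed under 2-fold (log2 fold change -0.84, edgeR adjusted p = 0.0420). Cacna1a, the P/Q-type calcium pore of synapses, was at 0.743 to 0.776 FPKM in the Sham mice and 0.566 to 1.09 FPKM in the HPi-Lp mice and was not called (log2 fold change 0.11, edgeR adjusted p = 0.718). Cacna1d, an L-type pore of neurons and endocrine cells, was at 1.06 to 1.68 and 0.564 to 1.08 FPKM in these groups and was not called either (log2 fold change -0.83, edgeR adjusted p = 0.0176).

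Scn7a and Kcnj10 were also highest in replicate 1. Scn7a, a sodium channel relative of glia and fibroblasts that was in no list, was at 5.16, 4.72, 4.23 and 4.08 FPKM in the Sham mice and 18.6, 5.86, 6.72 and 10.8 FPKM in the HPi-Lp mice. It was higher without overlap (log2 fold change 1.17, SE 0.33, edgeR adjusted p = 0.0160), a call lost without Sham replicate 4 or HPi-Lp replicate 1, with log2 fold changes of 0.76 to 1.38 and adjusted p-values up to 0.0510 over the fits that left out 1 library, and the log2 fold change was 0.45 with replicates 2 and 3 alone. Against the LPi-Lp mice (log2 fold change 1.21, edgeR adjusted p = 0.0441) it was lost without HPi-Lp replicates 1 or 4 or LPi-Lp replicates 1, 2, 3 or 4 (adjusted p up to 0.111) and with replicates 2 and 3 alone (0.50, adjusted p = 0.259). Kcnj10, the inward rectifier of glia, was at 0.0680, 0.0541, 0.0398 and 0 FPKM in the Sham mice and 0.921, 0.169, 0.303 and 0.563 FPKM in the HPi-Lp mice (log2 fold change 3.52, SE 0.84, edgeR adjusted p = 0.00758), with an adjusted p of 0.0506 when replicates 2 and 3 stood alone. Its call against the LPi-Lp mice (log2 fold change 2.13, edgeR adjusted p = 0.0356) was lost without HPi-Lp replicates 1 or 4 or LPi-Lp replicates 1, 2, 3 or 4 (adjusted p up to 0.0930) and with replicates 2 and 3 alone (1.12, adjusted p = 0.286). The Schwann cell markers had their highest sum, 162 FPKM, in the same replicate 1, and the fibroblast markers summed to 505, 2088, 921 and 856 FPKM in replicates 1 to 4. The part of these cells was not tested.

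Most channels of striated muscle were low except in 1 library. Kcnip2, a subunit of the transient outward current of the heart, was at 10.3 FPKM in LPi-Lp replicate 2 and at most 0.449 FPKM elsewhere, and Kcng2, a silent modifier, at 11.1 FPKM there and at most 1.97 FPKM elsewhere. Kcnj11 at 9.50, Kcnq1 at 3.32 and Kcnj2 at 1.51 FPKM were also highest of their group in that library. It is the library with 2353 FPKM of heart muscle markers, of which all 5 were above 1 FPKM. Their part in these values was not tested. Scn4b, a sodium channel beta subunit of heart and nerve, was at 0.339, 0.151, 0.207 and 0.223 FPKM in the Sham mice and 0.779, 0.352, 0.342 and 0.338 FPKM in the HPi-Lp mice (log2 fold change 0.93, edgeR adjusted p = 0.106). Of the 8 striated-muscle-type genes (without Kcnh2 and Kcnj11), 2 to 4 were tested in each comparison of the HPi-Lp mice and none was called. Of the 5 epithelial-type genes 3 were tested in each, and none was called.

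Of 31 partner genes that are no members (other channels, calcium stores, pumps and junction proteins), 29 were tested against the Sham mice. Of these, 6 were called higher (Dpp6, Hcn3, Hcn4, Itpr2 and Trpc6 among them) and 8 lower (Atp2a2, Atp2b4, Dpp10, Itpr1, Jph2, Nalcn, Ryr2 and Slc8a1), beside 15.0% and 7.18% of all genes. Only Jph2 and Hcn3 were called the same way in all 3 comparisons. Jph2 encodes junctophilin, which holds the calcium store close to the surface membrane where calcium sparks open BK channels. It was at 193, 164, 119 and 178 FPKM in the Sham mice and 28.4, 17.1, 32.3 and 16.2 FPKM in the HPi-Lp mice, and it was lower against the Sham (log2 fold change -2.83, SE 0.27, edgeR adjusted p = 5.67e-05), the LPi-Lp (log2 fold change -1.89, edgeR adjusted p = 0.00638) and the HPi-Hp mice (log2 fold change -2.11, edgeR adjusted p = 0.0196). The last call was lost without HPi-Lp replicate 2 or 4 (-1.98 and -1.97, adjusted p = 0.0509 and 0.0663) and with replicates 2 and 3 alone (-2.04, adjusted p = 0.0987). Hcn3, a pacemaker channel, was at 1.70, 0.297, 0.532 and 1.31 FPKM in the HPi-Lp mice and 0.114 to 0.193 FPKM in the Sham mice (log2 fold change 2.65, SE 0.57, edgeR adjusted p = 0.00448), highest in replicates 1 and 4. Its calls against the HPi-Hp (log2 fold change 2.41, edgeR adjusted p = 0.0378) and LPi-Lp mice (log2 fold change 2.17, edgeR adjusted p = 0.0339) rested on most libraries. With replicates 2 and 3 alone, Hcn3 kept its call against the Sham mice (1.47, adjusted p = 0.0323) and lost those against the HPi-Hp (1.22, adjusted p = 0.371) and LPi-Lp mice (0.99, adjusted p = 0.311). In the fits that left out 1 library, the former was kept only without HPi-Lp replicate 2 and was 1.99 without replicate 1 (adjusted p = 0.0815). The latter was kept only without HPi-Lp replicate 2 or 3 and was 1.77 without replicate 1 (adjusted p = 0.0727).

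The other 5/6 Nx groups were set against the same Sham libraries, so the comparisons are not independent. In the HPi-Hp mice, 14 of 71 members were upregulated and 7 downregulated, where 9.41% and 2.75% of all genes were called. In the LPi-Lp mice, 4 of 70 were upregulated and 7 downregulated, where 8.79% and 2.08% of all genes were called. In the HPi-Hp mice the count of upregulated members was 6, 4, 4 and 8 without Sham replicates 1 to 4, 8 and 7 without HPi-Hp replicates 2 and 3, and that of downregulated members 13 without HPi-Hp replicate 4 and 4 without Sham replicate 2 or HPi-Hp replicate 1. In the LPi-Lp mice 7 and 11 were upregulated without LPi-Lp replicates 3 and 4, and 3 and 4 downregulated without Sham replicates 2 and 4. Over the fits that left out 1 library, 73 to 78 members were tested in the HPi-Hp mice and 70 to 77 in the LPi-Lp mice. Of all genes, 874 to 2082 were higher and 217 to 1079 lower in the former, and 1130 to 1635 and 203 to 598 in the latter. Of the 19 smooth-muscle-type genes, 2 were higher and 5 lower in the HPi-Hp mice (median log2 fold change -0.038, beside 0.018 over all genes), and 2 were higher and 3 lower in the LPi-Lp mice (-0.28, beside 0.020). Of 20 neuron-type genes tested, 4 were higher and 1 lower in the former (median 0.36) and 1 higher and 2 lower in the latter (0.30).

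Among the smooth-muscle-type genes, Kcnmb1 was lower in the HPi-Hp (log2 fold change -1.50, edgeR adjusted p = 0.0306) and the LPi-Lp mice (log2 fold change -1.25, edgeR adjusted p = 0.0193), as was Kcnab1, with log2 fold changes of -1.47 and -1.39 (edgeR adjusted p = 0.0164 and 0.00361). Kcne4 was lower too, from 14.9 ± 2.81 FPKM (SD, n = 4) in the Sham mice to 5.64 ± 2.78 FPKM (log2 fold change -1.40, edgeR adjusted p = 0.0135) and 6.44 ± 1.40 FPKM (log2 fold change -1.19, edgeR adjusted p = 0.00344). The Kcnmb1 call in the HPi-Hp mice was lost without Sham replicates 1, 2, 3 or 4 or HPi-Hp replicates 1 or 2, with log2 fold changes of -2.20 to -1.23 and adjusted p-values up to 0.0786 over the fits that left out 1 library, and that in the LPi-Lp mice was lost without Sham replicate 2 (adjusted p up to 0.0545). The calls of Kcnab1 and Kcne4 were kept without any 1 library. Cacna2d1 and Cacnb2 were lower in the HPi-Hp mice alone of these groups (-1.01 and -1.03, edgeR adjusted p = 0.0200 and 0.0376), where the difference between the groups was not tested. Cacna2d1 was lost without Sham replicates 2 or 3 or HPi-Hp replicates 1, 2 or 3, and Cacnb2 was lost without Sham replicates 1, 2 or 4 or HPi-Hp replicates 1, 2 or 3, with adjusted p-values up to 0.0532 and 0.0922. Kcnd3, Kcnh2 and Kcns3 were called in neither of these comparisons, and Kcnd3 came nearest (-0.94 and -0.84, edgeR adjusted p = 0.0162 and 0.0163). In the HPi-Hp mice Cacna1h (log2 fold change 1.01, edgeR adjusted p = 0.00899), Cacnb1 (log2 fold change 1.03, edgeR adjusted p = 0.0135) and Kcnip1 (log2 fold change 1.17, edgeR adjusted p = 0.00948) were higher, all close to the threshold of 2-fold. Cacna1h was lost without Sham replicates 1 or 3 or HPi-Hp replicates 1 or 4 (lowest value 0.94), Cacnb1 lost without Sham replicates 2 or 3 or HPi-Hp replicate 2 (0.78) and Kcnip1 lost without HPi-Hp replicate 3 (0.99). Kcnip4, the Kcnip1 relative, was lower in both groups, at 0.473 to 1.60 and 0.491 to 1.93 FPKM against 2.73 to 3.25 FPKM in the Sham mice. The log2 fold changes were -1.55 and -1.28 (edgeR adjusted p = 0.0100 and 0.0227), the latter lost without Sham replicates 2 or 4 (adjusted p up to 0.0610), whereas in the HPi-Lp mice it spread from 0.286 to 4.15 FPKM and was not called.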

How the data were processed

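Total RNA from 16 frozen, ground aortas was sequenced, 1 library per mouse. According to the study's methods, reads were cleaned by the authors, HISAT2 placed them on mm10, and featureCounts (version 1.5.0-p3 in the submitters' notes) gave counts per gene. The authors deposited raw counts in 1 table and FPKM in another. Strand and multi-mapping options are not given in the sources used here. Counts were tested with edgeR 4.0.16 (R 4.3.3) by the quasi-likelihood test after filterByExpr and TMM, on the 8 libraries of each comparison, with Benjamini-Hochberg adjustment over all genes tested. Calls needed an adjusted p no higher than 0.05 and a fold change of 2 or more, the thresholds of the study. FPKM was used as deposited for levels, sums and the Kcnmb1 to Kcnma1 ratio, which was tested with SciPy 1.17.1 by an exact permutation test. For genes with a group at 3 counts or fewer in every library the fitted fold change is not printed, though it entered the calls and medians. Tested on counts simulated for HPi-Lp against Sham (16982 genes), 98 of 100 genes with a log2 fold change of 2 and 75 of 100 with 1.5 were called, and 8 of 181 calls were false. The simulation gave all genes the same spread between mice and changed no gene with few expected counts. It therefore cannot give these rates for low genes or for genes that spread more within a group. Library totals of 13659525 to 57276915 counts limit the precision of low genes.

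The members, lists and tests were chosen with earlier results of these data known. Named were the 19 smooth-muscle-type members, the 6 highest and 6 lowest called members per comparison of the HPi-Lp mice with at least 50 counts on average in a group, called members that went against their list, the 5 members of each subunit class with the highest mean FPKM, and partner genes called one way in all 3 comparisons. Kcna3, Kcna6, Kcnc2, Kcng2, Kcnh1, Kcnip2, Kcnn4, Scn8a and the other partner genes were named after their values were seen, as were genes listed only as the members of a count. Some genes that these rules or counts include are not reported here by name. Alternatives were DESeq2 1.42.0, limma 3.58.1 on log2(FPKM + 1) and log2(FPKM + 0.1), other filters and scalings, no fold threshold, a replicate block, all 16 libraries in one fit and leaving out each library.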

Additional observations from a re-analysis of the deposited data

Results flagged for a closer look

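Within groups of 4 mice, a library was set apart where its gap to the nearest other library as a share of the group's range exceeded Dixon's 95% critical value. Chance sets apart about 1 in 20 groups, and 13 of the 179 groups tested were. In LPi-Lp replicate 2, Kcnj11 was at 9.50 FPKM (others 1.78 to 2.24), Kcnq1 at 3.32 (0.368 to 0.571), Kcnj2 at 1.51 (0.176 to 0.302) and Cacna1g at 1.29 (0.302 to 0.465), all highest of the group, and Kcnj8 was lowest at 15.1 (21.4 to 22.4). The heart muscle markers summed to 2353 FPKM in that library, and their part in these values was not tested.

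In HPi-Lp replicate 1, Kcna1 was highest at 5.6 FPKM (others 0.228 to 0.948), as were Cacng7 at 13.7 (7.28 to 8.36) and Scn4b at 0.779 (0.338 to 0.352), while Kcnj2 was lowest at 0.261 (1.02 to 1.17). This library held the highest sympathetic neuron marker sum, 878 FPKM. In LPi-Lp replicate 1, Scn3b was lowest at 0.255 FPKM (0.499 to 0.525) and Hcn3 at 0.0937 (0.246 to 0.249). In Sham replicate 2, Kcnab1 was highest at 20.3 FPKM (16.3 to 16.9) and Kcne4 lowest at 10.8 (15.8 to 16.7).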

How the results depend on the processing

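No call of a named gene turned its direction under any alternative. Of the 134 values of named genes, 21, none of them called, turned their sign under 1 or more alternatives, and 1 of these was then called, Kcnq5 against Sham (-1.52, adjusted p = 0.00611, with replicates 2 and 3 of the HPi-Lp mice alone). The balance of higher and lower counts was less stable, as the counts below show. It turned to more lower than higher for HPi-Lp against Sham with at least 10 counts in every library (11 and 12), limma (2 and 10, 7 and 12) and replicates 2 and 3 alone (15 and 21), and for HPi-Hp against Sham with limma (1 and 5, 3 and 8) and the replicate block (6 and 9). It turned to more higher than lower against the LPi-Lp mice with DESeq2 (17 and 14), and for LPi-Lp against Sham with DESeq2 (12 and 7), all 16 libraries (7 and 2) and no count filter (17 and 6). Leaving out some single libraries turned it too, in each of the 5 comparisons. For HPi-Lp against Sham, 21 of 76 channel genes were called higher. This became 41 of 117 with DESeq2, 32 of 130 with no count filter and 11 of 56 with at least 10 counts in every library. It became 2 of 53 with limma on log2(FPKM + 1) and 7 of 53 on log2(FPKM + 0.1). Of all genes, 3266 of 22277, 2693 of 31247, 1820 of 13904, 1256 of 15143 and 1916 of 15143 were higher in these fits. The count called lower was 13 and became 21 of 80 with replicates 2 and 3 of the HPi-Lp mice alone, beside 8.69% of all genes. Against the HPi-Hp mice, 1 was higher and 5 lower, which became 9 and 12 with DESeq2, 5 and 8 with no count filter, 6 and 11 with all 16 libraries in one fit, and 2 and 3 with limma at either pseudocount. Of all genes, 1268 and 826 of 18872, 956 and 597 of 30149, and 1237 and 774 of 17443 were called in the first 3 of these fits. With limma, 431 and 352 of 15425 were called at the pseudocount of 1 and 659 and 483 at 0.1. The higher count was 2 with replicates 2 and 3 alone. Against the LPi-Lp mice, 7 were higher and 11 lower. The higher count became 17 with DESeq2, 16 with all 16 libraries, 1 with limma on log2(FPKM + 1) and 3 on log2(FPKM + 0.1), and the lower count 7 with limma on log2(FPKM + 1). Of all genes, 1788 of 20406, 1576 of 17443, 663 of 15424 and 985 of 15424 were higher in these fits. In the limma fit on log2(FPKM + 1), 405 were lower. For HPi-Hp against Sham, 14 higher became 1 and 3 with limma at the pseudocounts of 1 and 0.1, beside 595 and 1022 of all 14720 genes. For LPi-Lp against Sham, 4 higher became 12 with DESeq2, 17 with no count filter, 7 with all 16 libraries, 1 and 2 with limma, and 8 with no fold threshold, and 7 lower became 2 with all 16 libraries, 3 with limma on log2(FPKM + 1) and 13 with no fold threshold. Of all genes, 1700 of 18919 were higher with DESeq2, 1513 of 31290 with no count filter and 1169 of 17443 with all 16 libraries. With limma 683 and 1040 of 14619 were. Lower were 219 with all 16 libraries and 187 with limma on log2(FPKM + 1). Limma tested only genes above 0.5 FPKM on average, so it tested fewer members, and DESeq2 and the absent filter let more low genes in. The share this takes of each difference was not tested.

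The animal numbers of the labels do not pair the samples, since the correlations of same-numbered deviations ran from -0.201 to 0.12. With the replicate block, 3 rather than 5 members were lower against the HPi-Hp mice, 3 rather than 7 higher and 7 rather than 11 lower against the LPi-Lp mice, and 6 rather than 14 higher in HPi-Hp against Sham. The other counts stayed within 1.5 times. Of 134 calls and values of named genes, 119 kept their side of the threshold under the block and 15 lost their call, while another scaling (RLE) and leaving out mitochondrially encoded genes changed none of the 134. Limma lost 23 calls on log2(FPKM + 1) and 11 on log2(FPKM + 0.1), and replicates 2 and 3 of the HPi-Lp mice alone lost 20.

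Leaving out 1 library at a time, 16 to 35 members were higher and 12 to 17 lower against Sham, 1 to 4 higher and 3 to 8 lower against HPi-Hp, and 3 to 16 higher and 4 to 13 lower against LPi-Lp. For HPi-Hp against Sham the ranges were 4 to 17 and 4 to 13, and for LPi-Lp against Sham 3 to 11 and 3 to 10. The Kcnmb1 to Kcnma1 differences ran from -1.91 to -1.47 against Sham, -1.26 to -0.82 against HPi-Hp and -1.45 to -1.01 against LPi-Lp. With 3 mice against 4 the two-sided exact permutation test cannot give a p below 0.0571, which it gave in each such comparison with Sham and LPi-Lp.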

Other observations

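Among the epithelial-type channels, described after their values were seen, Kcnj15 (an inward rectifier of kidney and other epithelia) had the highest level. It was at 5.48, 6.56, 7.30 and 6.79 FPKM in the Sham mice, 1.56, 1.40, 1.04 and 4.09 FPKM in the HPi-Hp mice and 2.61, 2.55, 2.93 and 4.59 FPKM in the LPi-Lp mice. Both 5/6 Nx groups lay below the Sham mice, with log2 fold changes of -1.68 and -1.02 (edgeR adjusted p = 0.0125 and 0.00507). The HPi-Hp call was kept without any 1 library. The LPi-Lp call was lost without Sham replicate 3 or LPi-Lp replicates 1, 2 or 3, with log2 fold changes of -1.27 to -0.94 over the fits that left out 1 library. In the HPi-Lp mice Kcnj15 was at 1.91, 14.9, 6.85 and 4.3 FPKM, spread on both sides of the Sham mice, and was not called (log2 fold change 0.074, edgeR adjusted p = 0.916). The replicate with the highest Kcnj15 was replicate 2. Of the HPi-Lp mice it also had the highest sums of macrophage, fibroblast and endothelial cell markers (1179, 2088 and 162 FPKM). Whether these bear on Kcnj15 was not tested. Kcnk5, an acid-sensitive background channel of the kidney, was higher in the HPi-Hp mice than in the Sham mice, at 0.973, 0.748, 0.733 and 0.624 against 0.464, 0.344, 0.392 and 0.191 FPKM (log2 fold change 1.14, edgeR adjusted p = 0.0335), a call lost without Sham replicates 1, 2, 3 or 4 or HPi-Hp replicates 1 or 3.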
